A study of Mus musculus with 24 samples.

Results

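Lung gene expression was compared between mice given ovalbumin (OVA) alone and mice given saline, 6 arrays of the 24 in the series. The arrays were chosen by their titles, which gave 3 OVA mice and 3 saline mice, with 1 Affymetrix array per mouse. All 6 mice were females of the inbred strain BALB/C aged 8 to 10 weeks, and total lung RNA was measured 18 hours after the second of 2 intranasal doses, given on days 0 and 13. The other 18 arrays come from mice given 150 ug of diesel exhaust particles labelled N-DEP, A-DEP or C-DEP (written NDEP, ADEP and CDEP here), without or with OVA, again 3 mice per group. The OVA mice received 20 ug OVA and no particles, and the labels mark them as sensitized. An injection or an adjuvant is not given in the sources used here, so the 2 nasal doses are the only exposure the labels describe. The saline mice received neither allergen nor particles.

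Ovalbumin is a protein of egg white that is used as a model allergen. In the allergic airway, type 2 cytokines such as interleukin 4, interleukin 5 and interleukin 13 drive recruitment of eosinophils through eotaxin chemokines, mucus production by goblet cells and the alternatively activated state of macrophages. Interleukin 33, which epithelial cells release on damage, acts upstream of these cytokines. An allergen breathed in without an adjuvant is in general a weak inducer of this response, and particles have been studied as adjuvants for it.

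No gene passed an adjusted p of 0.05 between OVA and saline. The limma model called 0 of 12393 genes (0%), and the smallest adjusted p was 0.0798, for Timm10b, followed by 0.179 for Slc34a2. At an unadjusted p of 0.05 there were 818 genes (6.6%), of which 334 (2.7%) were higher and 484 (3.91%) lower in OVA. The 3 OVA values lay above all 3 saline values for 593 genes (4.78%) and below all 3 for 819 (6.61%). Only 2 genes (0.0161%) were at least 2-fold higher in mean level and 7 (0.0565%) at least 2-fold lower. The median difference over all genes was -0.02 log2 and the median size of a difference was 0.09 log2. The 95% confidence interval of a difference had a median half-width of 0.24 log2, which is 1.18-fold, and 0.38 log2 at the 95th percentile of genes. The values below are log2 intensities, a difference is OVA minus saline in log2 followed by its SE, and every gene named missed the threshold in this comparison. A gene is called dim in a group when its mean there lay below the 25th percentile of each of the group's arrays (4.52 to 4.64 log2), where a level is not shown to lie above background.

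The gene with the largest mean difference was Clca1, a secreted protein of goblet cells, and its 3 OVA mice were far apart. Its level was 6.79, 3.80 and 9.29 in OVA replicates 1, 2 and 3, and 3.54, 4.59 and 5.48 in the saline mice. OVA replicates 1 and 3 lay above all saline mice, while replicate 2 lay among them, so the groups overlapped. The level in replicate 2 lay below the limit for a dim signal, so no fold between the OVA mice is given. The mean difference was 2.09 ± 0.90 (unadjusted p = 0.0288, limma adjusted p = 0.716), with a 95% interval from 0.24 to 3.94. It was 0.75 without OVA replicate 3 and 3.50 without OVA replicate 2. A second probe set of Clca1, with a dim signal, gave 0.21. In the 9 mice given particles without OVA the level of Clca1 ran from 3.60 to 7.29 with a median of 3.87, so a level above that of all saline mice was also seen without the allergen. In the 9 mice given particles with OVA it ran from 7.92 to 12.33, with a median of 11.51.

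Retnla, a secreted product of alternatively activated macrophages and airway epithelium, was also among the 10 genes of largest SD in the OVA group. It stood at 11.78, 9.27 and 12.60 in OVA replicates 1, 2 and 3 and at 11.02, 11.75 and 11.80 in saline. Replicate 2 lay below every saline mouse and replicate 3 above every one. The mean difference was -0.31 ± 0.44 (limma adjusted p = 0.939), and it was 0.67 without OVA replicate 2 and -1.0 without OVA replicate 3. In the 9 mice given particles alone, Retnla lay between 12.40 and 13.29, above 5 of the 6 OVA and saline mice. Agr2, a protein of the secretory pathway needed for mucin folding, was 6.49, 5.35 and 7.60 in OVA against 5.65, 5.40 and 6.14 in saline. Again replicates 1 and 3 lay above all saline mice and replicate 2 lay just below them.

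**Figure D1:**
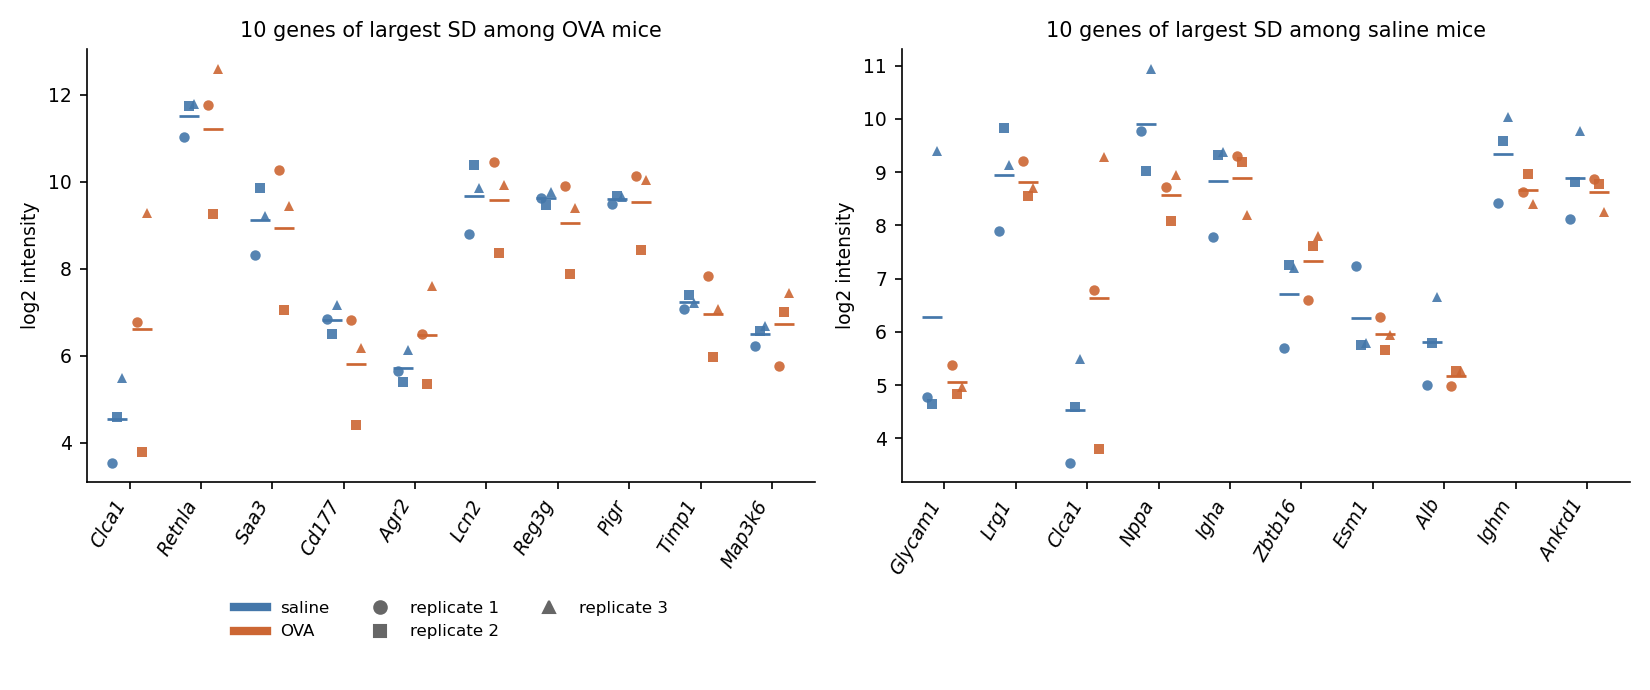
Log2 intensity of the 10 genes with the largest SD among OVA mice (left) and among saline mice (right), 1 point per mouse, with group means as lines and the marker shape giving the replicate number. In the left panel OVA replicate 2 is the lowest OVA mouse for 9 of 10 genes, and in the right panel saline replicate 3 is the highest saline mouse for 7 of 10.

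The same mouse, OVA replicate 2, was low for secreted defence proteins. Saa3, an acute phase protein of the inflamed lung, stood at 10.28, 7.06 and 9.45 in the OVA mice and at 8.31, 9.86 and 9.21 in saline. Lcn2, an iron-scavenging defence protein of epithelium and neutrophils, stood at 10.46, 8.36 and 9.93 in OVA against 8.81, 10.39 and 9.86 in saline. Reg3g, an antibacterial lectin, stood at 9.91, 7.87 and 9.40 in OVA against 9.64, 9.48 and 9.77 in saline. For all of these the other OVA mice lay close to or above the saline mice, and replicate 2 lay below every saline mouse. Pigr, the receptor that carries IgA across epithelium, had 10.15, 8.43 and 10.04 in OVA and 9.50, 9.67 and 9.65 in saline. Cd177, a surface protein of neutrophils, had 6.82, 4.41 and 6.19 against 6.84, 6.50 and 7.16. Timp1, an inhibitor of matrix proteases, had 7.84, 5.96 and 7.08 against 7.07, 7.41 and 7.23. The gap below both other OVA mice belongs to 1 animal in each gene, and the group means do not show it. For Cd177, OVA replicate 3 also lay below every saline mouse. Its difference was -1.02 with all mice and -0.33 without OVA replicate 2.

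In OVA replicate 2, 15 of 12393 genes lay more than 1 log2 below both other OVA mice. The same count within their own groups was 4 and 0 for OVA replicates 1 and 3, and 10, 3 and 0 for the saline mice. In the particle groups it ran from 0 to 14, the highest in NDEP replicate 1 given OVA. For 14 of the 15 genes OVA replicate 2 also lay below every saline mouse, but the genes were chosen for its low value. Beside those above, the 15 genes hold Bpifb1, Ltf, Muc5b, Pglyrp1, Cxcl13 and Ccl9, which encode airway secretions, antibacterial proteins and chemokines. Of 15 measured acute phase and innate defence proteins, 13 were lowest in OVA replicate 2 within its group and 11 were highest in OVA replicate 1. Over all 12393 genes these counts were 4153 and 3898. The mean level of that list was 8.13, 7.09 and 7.91 in the OVA mice and 7.62, 8.07 and 7.98 in saline. Its median difference was -0.12, beside -0.02 over all genes, with 0 of 15 members at an unadjusted p of 0.05 in either direction. Without OVA replicate 2 the median was 0.11, so the sign of the list rested on that mouse. Goblet cell and mucus genes were highest in OVA replicate 3 for 10 of 14 members, beside 4184 of all 12393 genes. Their mean level was 5.99, 5.42 and 6.37 in OVA against 5.45, 5.83 and 5.94 in saline. Their median difference was 0.05, with 1 of 14 members (Clca1) higher at an unadjusted p of 0.05, beside 2.7% of all genes.

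Over all genes, the OVA mice were more alike than the saline mice. The median SD of a gene was 0.10 log2 in OVA and 0.14 in saline, a ratio of 0.717, and the other 6 groups had medians from 0.10 to 0.13. An SD above 0.5 was seen for 53 genes in OVA and 136 in saline. An SD above 1 was seen for 7 genes in OVA and 1 in saline. Correlations between arrays were 0.994 to 0.995 within OVA, 0.988 to 0.992 within saline and 0.991 to 0.994 between the groups. The first principal component of the 6 arrays held 35.4% of the variance and set saline replicate 1 (16.2) against saline replicate 2 (-18.2). The second held 21.3% and separated the OVA mice (-9.49 to -6.11) from the saline mice (6.63 to 10.0).

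Saline replicate 1 stood apart in RNA quality as well. The 3′ minus 5′ difference of the Gapdh control probe sets, which grows as RNA degrades, was 0.68 log2 in this mouse, 0.12 and 0.28 in the other saline mice and 0.01 to 0.32 in OVA. Saline replicate 1 was the lowest saline mouse for 12 of 13 alveolar type 2 genes and all 5 mesothelial genes, and the highest for 15 of 17 fibroblast genes. Saline replicate 3 was the highest saline mouse for 19 of 21 heart muscle genes. Over all 12393 genes, saline replicate 1 was lowest for 5735 and highest for 3306, and saline replicate 3 was highest for 3717. In a bulk sample such as whole lung, fewer cells of a type and less RNA per cell cannot be told apart. Medians of tissue lists are given below also without single mice.

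Alveolar type 2 genes, whose cells make surfactant, had a median difference of 0.31 over 13 members, with 12 of 13 signed higher beside 43.8% of all genes, and 6 of 13 were higher at an unadjusted p of 0.05 against 2.7% of all genes. The list's mean level was 10.76, 10.93 and 10.83 in OVA and 10.2, 10.76 and 10.6 in saline. Saline replicate 1 was by far the lowest, and saline replicate 2 equalled the lowest OVA mouse. The median was 0.10 without saline replicate 1 and 0.48 without saline replicate 2, so either animal moved it more than 1.5-fold. It was 0.19 with the RNA quality differences as covariates. Slc34a2, the phosphate transporter of type 2 cells, stood at 11.70, 11.94 and 11.69 in OVA and 10.98, 11.35 and 11.23 in saline. The groups did not overlap, and the difference was 0.59 ± 0.12 (unadjusted p = 2.9e-05, limma adjusted p = 0.179). Napsa, a protease that processes surfactant protein, was 10.22, 10.62 and 10.27 in OVA against 9.09, 10.29 and 9.77 in saline, with overlap through saline replicate 2. Etv5, a transcription factor that maintains type 2 cells, was 6.22, 6.92 and 6.64 against 5.76, 6.12 and 6.14, without overlap.

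Il33, which type 2 cells express in the mouse lung, is a member of the alveolar type 2 list and is among the 6 members counted above. It had the largest positive difference among genes without overlap at an unadjusted p of 0.05. Its level was 6.84, 6.73 and 6.96 in OVA and 5.68, 6.35 and 6.26 in saline. All OVA mice lay above all saline mice, and the OVA mice were close together (SD 0.11) while the saline mice were not (SD 0.36). The difference was 0.74 ± 0.22, or 1.67-fold (unadjusted p = 0.0025, limma adjusted p = 0.573). It was 0.53 without saline replicate 1. In the particle backgrounds the averaged OVA difference of Il33 was 0.32 ± 0.13 (limma adjusted p = 0.179). In the 9 mice given particles without OVA its level ran from 7.17 to 7.99 with a median of 7.72. All of these lay above every OVA and saline mouse, so a higher level was also seen without the allergen.

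The other epithelial and lining lists were mixed. Club cell genes had a median of 0.02 (7 of 12 signed higher), ciliated cell genes -0.05 (6 of 7 signed lower) and squamous and upper airway genes -0.01 (7 of 13 signed lower). Over all genes 43.8% were signed higher and 56.2% lower. Alveolar type 1 genes, from the flat cells of gas exchange, had a median of 0.20, and 0.16 without saline replicate 1. Of 8 members 4 were higher at an unadjusted p of 0.05 (Rtkn2, Ager, Igfbp2 and Hopx), beside 2.7% of all genes. Cldn18, a tight junction protein of the alveolar epithelium, was 10.64, 10.66 and 10.69 in OVA and 9.51, 10.53 and 10.15 in saline. Its OVA mice were almost identical (SD 0.03), and the difference of 0.60 ± 0.18 came with a wide saline spread (SD 0.51). It was 0.33 without saline replicate 1. Mesothelial genes, from the pleural surface, had the highest median of the 43 lists at 0.46. Of 5 members 3 were higher at an unadjusted p of 0.05, beside 2.7% of all genes. Upk3b was 8.44, 8.62 and 7.69 in OVA against 6.49, 7.98 and 6.64 in saline, and Msln was 6.97, 6.62 and 6.09 against 5.44, 6.28 and 5.44. In both genes saline replicate 2 lay within the OVA range. The mesothelial median was 0.28 without saline replicate 1.

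**Figure D2:**
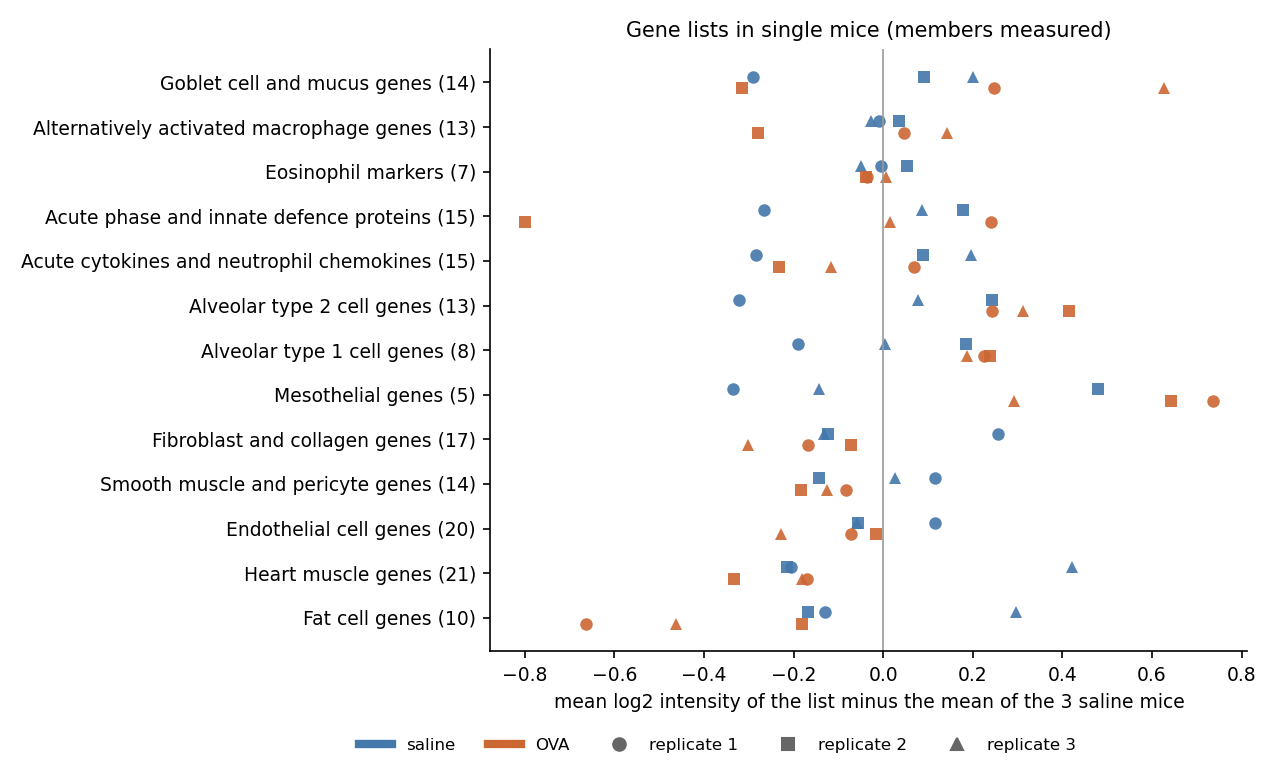
Mean log2 level of 13 gene lists in each mouse, as the difference from the mean of the 3 saline mice, with the number of measured members in parentheses. Acute phase proteins have OVA replicate 2 far to the left, heart muscle genes have saline replicate 3 to the right of all other mice, and alveolar type 2 genes have saline replicate 1 as the lowest mouse.

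Fibroblast and collagen genes had a median of -0.16, with 13 of 17 signed lower beside 56.2% of all genes, and 4 of 17 lower at an unadjusted p of 0.05 against 3.91% of all genes. Col1a1, a chain of type I collagen, was 9.26, 9.32 and 9.25 in OVA and 9.85, 9.88 and 9.69 in saline. All OVA mice lay below all saline mice with little spread in either group, and the difference was -0.53 ± 0.14 (limma adjusted p = 0.485). Dcn, a proteoglycan that binds collagen, was 9.49, 9.45 and 9.32 against 10.27, 9.59 and 10.13, also without overlap. Ddr2, a receptor for fibrillar collagen, was 7.28, 7.94 and 7.28 against 8.39, 8.03 and 8.07. The list's median was -0.07 without saline replicate 1, in which these genes were highest, -0.10 without OVA replicate 3, and -0.25 without OVA replicate 2 or saline replicate 3. Smooth muscle and pericyte genes had a median of -0.14, with 3 of 14 lower at an unadjusted p of 0.05 (Rgs5, Cnn1 and Acta2) beside 3.91% of all genes. Other probe sets of Rgs5, all of lower level, gave -0.03, -0.11 and -0.02. The smooth muscle median was -0.05 without saline replicate 1, -0.07 without OVA replicate 2 or saline replicate 3, and -0.22 without saline replicate 2. Endothelial genes had a median of -0.10, with 2 of 20 lower at an unadjusted p of 0.05 (Ptprb and Vwf) beside the same 3.91%. Their median was -0.04 without OVA replicate 3, -0.06 without saline replicate 1 and -0.17 without OVA replicate 2.

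Heart muscle genes, which cardiac muscle around the pulmonary veins of mice also expresses, had a median of -0.17. All 21 members were signed lower, beside 56.2% of all genes, and 3 of 21 were lower at an unadjusted p of 0.05 against 3.91% of all genes. The median was 0.03 without saline replicate 3, so its sign rested on that mouse, and ran from -0.27 to -0.12 without any 1 of the other mice. Nppa, the atrial natriuretic peptide, was 8.71, 8.07 and 8.94 in OVA and 9.77, 9.02 and 10.94 in saline. It had the most negative difference among genes without overlap at an unadjusted p of 0.05, -1.33 ± 0.43 (limma adjusted p = 0.580). Saline replicate 3 held the highest value, and the difference was -0.82 without it. Csrp3, a protein of the heart muscle Z disc, was 8.02, 8.10 and 8.02 in OVA against 8.27, 8.34 and 9.20 in saline, and its difference of -0.56 was -0.26 without saline replicate 3. The fat cell list had a median of -0.35 with all 10 members signed lower, beside 56.2% of all genes. Of these, 3 of 10 were lower at an unadjusted p of 0.05 (Pck1, Cidec and Adipoq), against 3.91% of all genes. Pck1 was dim in both groups, with another probe set at -0.02, and Cidec was dim in OVA. The median of the fat cell list was -0.18 without saline replicate 3 and -0.20 without OVA replicate 1. Adipoq, the fat cell hormone adiponectin, was 4.71, 6.03 and 5.08 in OVA and 6.43, 5.97 and 7.29 in saline.

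The cytokines and effectors of the allergic response gave small differences. Among 13 type 2 cytokines and receptors the median was -0.06, and Il33, also counted in the alveolar type 2 list, was the only member at an unadjusted p of 0.05. Il4, Il5 and Il13 had differences of -0.17, -0.08 and -0.10, with Il4 and Il5 dim in both groups and Il13 dim in OVA. The 10 eotaxins and related chemokines had a median of -0.02 and 0 of 10 at an unadjusted p of 0.05. Ccl11, eotaxin 1, was 4.17, 4.25 and 4.37 in OVA against 4.45, 4.50 and 4.62 in saline, dim in both groups. Ccl17, a chemokine for type 2 T cells, was 6.23, 6.15 and 7.06 in OVA against 5.99, 6.29 and 6.20 in saline, and OVA replicate 3 alone stood above the rest. The 7 eosinophil markers had a median of 0.00, and 6 of 7 were dim in both groups. Epx and Prg2, granule proteins of eosinophils, had differences of -0.14 and -0.07.

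Alternatively activated macrophage genes had a median of -0.03, with 0 of 13 at an unadjusted p of 0.05. Arg1, an enzyme of arginine breakdown and a marker of that state, was dim at 4.11, 4.13 and 4.08 in OVA and 3.78, 4.14 and 3.73 in saline. Chil3, a chitinase-like protein of macrophages, had a difference of -0.16 ± 0.33, and its relative Chil4 had 0.08 ± 0.27. Muc5ac, the inducible airway mucin, was 5.94, 6.24 and 6.28 in OVA against 5.79, 6.14 and 6.21 in saline. Its difference was 0.11 ± 0.18, with a 95% interval from -0.26 to 0.47. Slc26a4, an anion transporter of the inflamed airway, had 6.37, 5.16 and 5.97 in OVA and 4.99, 6.27 and 6.01 in saline, a difference of 0.08 ± 0.29. These groups overlapped throughout, and intervals of this width leave changes of moderate size undetectable with 3 mice per group.

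Among neutrophil genes the median was 0.05, with S100a8 higher and Cd177 and Clec4e lower at an unadjusted p of 0.05, out of 16. Over all genes 2.7% were higher and 3.91% lower at that p. S100a8, a subunit of calprotectin, was 7.05, 6.49 and 7.11 in OVA against 5.81, 6.66 and 6.31 in saline, with overlap. Cxcl1, a chemokine for neutrophils, was 5.62, 4.10 and 4.74 against 4.33, 5.37 and 5.72, and here too OVA replicate 2 was the lowest mouse. Cyp1a1, the enzyme by which exposure to aromatic hydrocarbons is commonly read, had a difference of 0.01 ± 0.26. Orm1, an acute phase plasma protein, was 4.43, 4.18 and 4.30 in OVA and 4.83, 4.76 and 4.92 in saline, a difference of -0.54 ± 0.38. It was dim in OVA, so the size of this difference is uncertain. Interferon-gamma response genes had a median of 0.00, with 0 of 16 at an unadjusted p of 0.05.

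Clock genes had a median of 0.12 over 16 members. Nr1d1, a repressor of the circadian clock, was 7.71, 8.27 and 8.09 in OVA and 6.94, 7.69 and 7.59 in saline, a difference of 0.62 ± 0.21, or 0.38 without saline replicate 1. The groups did not overlap, although OVA replicate 1 and saline replicate 2 were 0.02 apart. Bhlhe40 (0.26) and Clock (-0.24) were the other members at an unadjusted p of 0.05, which 6.6% of all genes reached. A second probe set of Clock, with a saline mean of 7.31, gave 0.18, so the direction for Clock differed between its probe sets. The hour of dosing or necropsy of each mouse is not given in the sources used here. Among unfolded protein response genes, Dnajb9, Hspa5 and Hsp90b1, chaperones of the endoplasmic reticulum, were higher at an unadjusted p of 0.05 (3 of 16, beside 2.7% of all genes). The median of that list was 0.03. Dnajb9 was 8.85, 8.85 and 9.15 in OVA against 8.49, 8.24 and 8.61 in saline, without overlap. Fkbp5, a target of glucocorticoids, was 7.60, 8.72 and 8.82 in OVA against 7.60, 7.93 and 7.65 in saline, so its difference of 0.65 came from OVA replicates 2 and 3 (1.04 without OVA replicate 1 and 0.43 without OVA replicate 3).

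**Figure D3:**
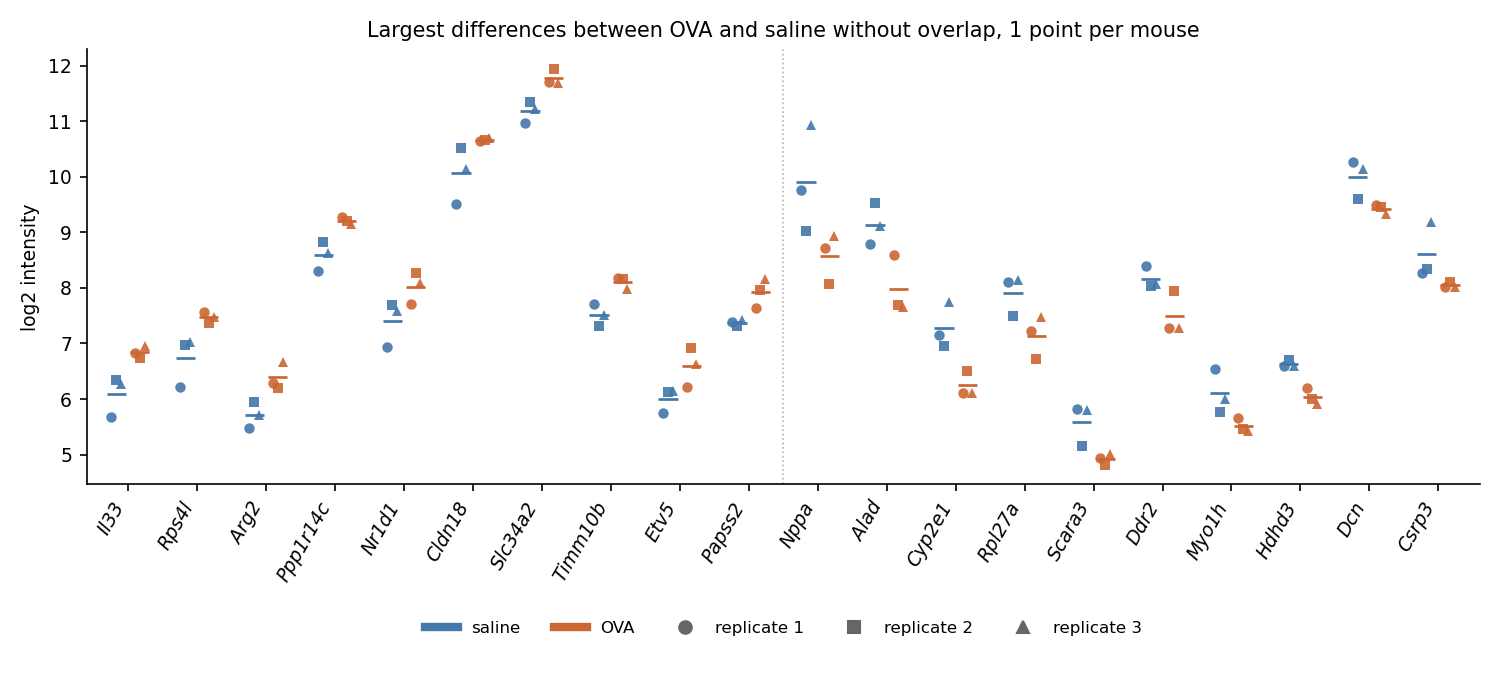
Log2 intensity in each mouse for the 10 highest and, right of the dotted line, the 10 lowest differences among genes whose 3 OVA and 3 saline mice did not overlap and whose unadjusted p was under 0.05, with group means as lines. The genes were chosen for this separation, and none passed the adjusted threshold. Saline points are more widely scattered than OVA points for most genes, with median SDs of 0.36 and 0.14.

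By the naming rule, the 20 genes of the plot of largest differences are those that separated the groups most among genes that missed the threshold, so their lack of overlap is the choice itself. Their adjusted p ran from 0.0798 to 0.716. All 20 kept their sign in each of 15 alternative fits. These include leaving out each of the 6 mice, which cannot turn the sign of a gene without overlap. Sizes moved in both directions. With heart and fat covariates Cyp2e1 went from -1.04 to -0.44, Csrp3 from -0.56 to -0.15, Dcn from -0.58 to -0.29 and Nppa from -1.33 to -1.20. In the same fit Il33 rose from 0.74 to 0.92 and Nr1d1 from 0.62 to 0.91. The heart covariate is the mean of the heart muscle list, so Csrp3 and Nppa were adjusted for a score that contains them. With RNA quality covariates Etv5 went from 0.59 to 0.26 and Rpl27a from -0.78 to -0.37. Timm10b, which helps import proteins into mitochondria, had the smallest p. It was 8.18, 8.17 and 7.98 in OVA and 7.72, 7.32 and 7.52 in saline, a difference of 0.59 ± 0.10. Its 3 other probe sets gave 0.05, 0.18 and -0.14, so the difference rested on 1 of 4 probe sets. It passed at an adjusted p of 0.0182 without saline replicate 1. Ptprj, a receptor phosphatase, had a difference of 0.44 and 3 other probe sets at 0.05, -0.01 and 0.10. Psmc5, a subunit of the proteasome, was 9.41, 9.28 and 9.28 against 8.86, 8.89 and 8.95, with a difference of 0.42 ± 0.10 and small spread in both groups. It ran from 9.05 to 9.41 in the 9 mice given particles without OVA, also above all saline mice.

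Further genes without overlap included Rps4l, a ribosomal protein gene, at 7.56, 7.38 and 7.48 in OVA against 6.22, 6.96 and 7.03. Arg2, the mitochondrial arginase, was 6.29, 6.21 and 6.67 against 5.48, 5.94 and 5.71, while its other probe set gave 0.30. In both the gap between the groups was smaller than the distance within saline. Arg2 ran from 6.47 to 7.32 in the 9 mice given particles without OVA, above all saline mice. Papss2, which makes the sulfate donor for proteoglycans, was 7.64, 7.96 and 8.17 against a tight saline group at 7.38, 7.31 and 7.43. Cyp2e1, a cytochrome P450 of liver, lung and fat, was 6.12, 6.50 and 6.11 in OVA and 7.15, 6.96 and 7.74 in saline, a difference of -1.04 ± 0.29. Scara3, a scavenger receptor, was 4.94, 4.82 and 5.01 against 5.82, 5.15 and 5.81. All 3 genes had OVA mice on 1 side of every saline mouse.

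Alad and Hdhd3 were both lower in OVA and are neighbours on chromosome 4 (GRCm38.p6), Hdhd3 at chr4:62499054-62502200 and Alad at chr4:62505984-62520063, 3783 bases apart. Alad, the enzyme of the second step of heme synthesis, was 8.59, 7.69 and 7.66 in OVA and 8.78, 9.53 and 9.11 in saline. OVA replicates 2 and 3 lay well below the other mice, and OVA replicate 1 lay just below the lowest saline mouse. The difference was -1.16 ± 0.29, a level 2.23-fold lower (limma adjusted p = 0.352). Hdhd3, a phosphatase-like protein of little known function, was 6.19, 6.01 and 5.92 in OVA and 6.59, 6.70 and 6.59 in saline, a difference of -0.59 ± 0.15. Over all 24 mice, 3 had an Alad level below 8: the same OVA replicates and CDEP replicate 2 (7.88). The other 21 lay between 8.57 and 9.53. CDEP replicate 2 was also the lowest of its group for Hdhd3 (6.11), and among the 21 other mice Hdhd3 ran from 6.03 to 6.77. The 6 other genes measured nearby had differences from -0.23 to 0.19, so the low values were confined to this pair among those 8 genes. The averaged OVA difference with particles was -0.01 ± 0.17 for Alad and -0.04 ± 0.09 for Hdhd3.

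**Figure D4:**
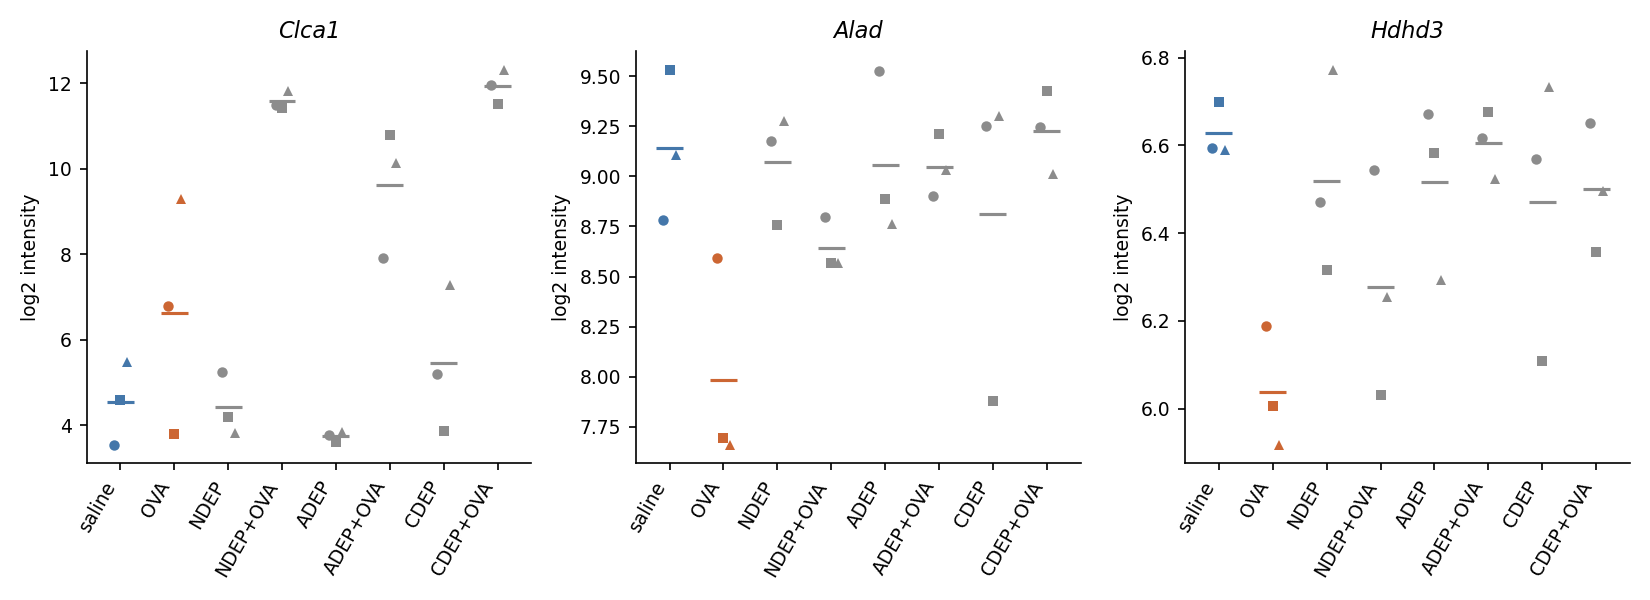
Log2 intensity of Clca1, Alad and Hdhd3 in all 24 mice by group, with group means as lines and marker shapes for replicate numbers. Clca1 is spread from 3.80 to 9.29 in OVA alone and is at least 7.92 in every mouse given particles with OVA. Alad is below 8 in OVA replicates 2 and 3 and in CDEP replicate 2.

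The widest spread among saline mice was seen for Glycam1, a ligand of L-selectin made in lymph node vessels. It was 4.77, 4.65 and 9.39 in saline replicates 1, 2 and 3, against 5.37, 4.83 and 4.97 in OVA. Replicate 3 alone carried the signal, and the difference of -1.22 ± 0.65 was 0.34 without it. Igha was 7.78, 9.32 and 9.38 in saline against 9.31, 9.18 and 8.19 in OVA, so 1 mouse in each group was low for this immunoglobulin heavy chain. Lrg1, a secreted glycoprotein of inflamed tissue, was 7.90, 9.83 and 9.13 in saline against 9.21, 8.54 and 8.69. Zbtb16, a transcription factor of innate-like lymphocytes and a glucocorticoid target, was 5.70, 7.25 and 7.20 in saline against 6.60, 7.61 and 7.79. Clca1 was the only gene among the 10 of largest SD in both groups.

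The OVA difference without particles was set beside the OVA difference in mice that also received particles, averaged over the 3 particle types, which uses none of the same arrays. The averaged difference called 474 genes (3.82%), 195 higher (1.57%) and 279 lower (2.25%). Taken 1 particle type at a time, the OVA difference called 34 genes with NDEP, 8 with ADEP and 444 with CDEP. The average draws on 18 arrays, so its SE is smaller than that of the 6-array comparison (0.52 against 0.90 for Clca1). Of the 195 that rose with particles, 89 (45.6%) were signed higher in OVA alone, beside 43.8% of all genes, and 9 (4.62%) were higher at an unadjusted p of 0.05, beside 2.7%. Their median difference was 0.33 with particles and -0.01 without. Of the 279 that fell with particles, 168 (60.2%) were signed lower in OVA alone, beside 56.2% of all genes, and 18 (6.45%) were lower at an unadjusted p of 0.05, beside 3.91%. Their medians were -0.34 and -0.06. In the averaged difference 12 of 14 goblet cell genes, 15 of 16 interferon-gamma response genes and 7 of 13 alternatively activated macrophage genes rose, beside 1.57% of all genes. In OVA alone 1, 0 and 0 of them were higher at an unadjusted p of 0.05.

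The difference between both OVA differences was tested as an interaction, which called 14 genes (0.113%). For 11 of them (0.0888%) the OVA difference was higher with particles and for 3 (0.0242%) lower. The count was 8 without any 1 of the OVA mice, 24 without saline replicate 2 and 30 without CDEP replicate 3 given OVA. Chil4 (2.37 ± 0.31), Rnase2a, an eosinophil-associated ribonuclease (1.84 ± 0.30), and Ccl11 (1.20 ± 0.16) passed in 31 of 31 alternative fits. In OVA alone these 3 had differences of 0.08, 0.11 and -0.26, and with particles 2.45, 1.95 and 0.93. By particle type (NDEP, ADEP, CDEP) the values were 2.83, 0.89 and 3.62 for Chil4 and 2.17, 1.28 and 2.41 for Rnase2a. For Ccl11 they were 0.68, 1.05 and 1.07. Arg1, Chil3, Muc5ac and Chia1 also rose with particles and had interactions from 1.08 to 2.11. The calls of Arg1, Muc5ac, Rgs5, Chia1, Gbp6 and Ndufa4 were lost without any 1 of the OVA mice. Rgs5, a regulator of G protein signalling in pericytes, was 6.01, 6.02 and 6.02 in OVA alone against 6.68, 6.19 and 6.45 in saline. Its OVA difference was -0.42 alone and 0.40 with particles. Its other probe sets, all of lower level, gave -0.03, -0.11 and -0.02 for OVA alone. In the 9 mice given particles without OVA, Rgs5 ran from 5.52 to 6.05, below all saline mice. Clca1 had the largest contrast, 6.51 ± 0.52 with particles against 2.09 ± 0.90 without, but the interaction of 4.42 ± 1.04 missed the threshold (adjusted p = 0.0952). Without OVA replicate 3, its highest mouse in OVA alone, the interaction was 5.75 with an adjusted p of 0.00592. Without OVA replicate 2, its lowest, the OVA difference without particles was 3.50, so that omission made the contrast smaller. The call thus depended on which mouse was left out. Timm10b, Txn1 and Ndufa4 went the other way, with interactions of -0.74, -0.54 and -0.64. In the 9 mice given particles without OVA, Timm10b ran from 8.05 to 8.32 and Txn1 from 11.47 to 11.63, above all saline mice. Ndufa4 ran from 9.42 to 10.1 there, against a saline mean of 9.37. With particles and OVA the 3 genes ran from 7.94 to 8.19, 11.17 to 11.49 and 9.18 to 9.6. The baseline without OVA was thus higher with particles than in saline. Txn1, the redox protein thioredoxin, was 11.34, 11.28 and 11.43 in OVA against 11.03, 10.95 and 11.07 in saline, while its other probe set gave -0.01.

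**Figure D5:**
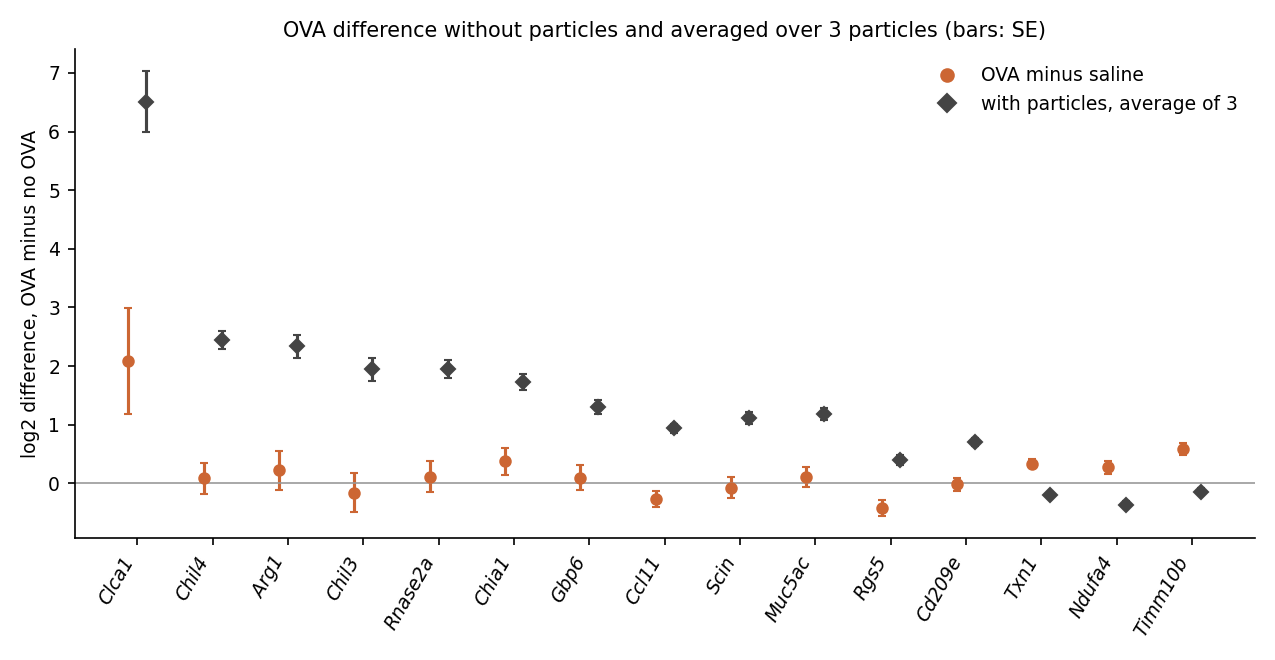
OVA difference in log2 without particles (circles) and averaged over 3 particle types (diamonds), with SE bars, for Clca1 and the 14 genes of the interaction, which were chosen by it. Circles lie near 0 for most genes while diamonds reach 2.45 for Chil4, and the last 3 genes lie above 0 without particles and below 0 with them.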

How the data were processed

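Lung RNA from 2 ug per mouse was biotin-labelled and hybridised to 1 Affymetrix array per mouse, 24 in all, per the labels' protocols. The authors deposited 1 intensity for each probe set, normalized with RMA per the submitters' processing notes, whose version and settings were not given in the sources used here. Intensities spanned 5.98 to 18195.5 and array medians 72.2 to 75.5 (72.5 to 74.0 on the 6 arrays compared), which is a linear scale, so log2 of the deposited values was taken. RMA draws arrays to one distribution and compresses differences of dim probe sets. Depth does not apply to arrays, and the number of arrays limits the precision.

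Of 22690 probe sets, 64 were controls, 691 had several gene symbols and 1555 had none in the platform annotation, and these were left out. For 4956 genes with several probe sets the brightest by mean log2 was kept. The 12393 genes so obtained were tested, and 12369 of them had their identifier in the reference gene table. limma 3.58.1 in R 4.3.3 fitted 8 group means to all 24 arrays (16 residual and 8.16 prior degrees of freedom), two-sided, with Benjamini-Hochberg adjustment over all genes at 0.05. Tables were made in Python 3.11.15 (pandas 2.3.3, numpy 2.4.6) and plots in matplotlib 3.10.9. The code was tested on simulated data. Named genes were the 10 highest and 10 lowest differences without overlap (filled from unadjusted p under 0.05 where none passed), the 5 smallest p, the 5 highest and 5 lowest of the averaged difference and of the interaction, the 10 largest SDs in each group, up to 4 members of each list and 21 genes always given. Lung lists of 590 distinct genes (43 lists, 515 genes measured) came from textbook knowledge. The comparison, the named genes and the lists were chosen with earlier results of these data known. Genes named outside the rule (Bpifb1, Ltf, Muc5b, Pglyrp1, Cxcl13, Ccl9) were chosen after their values were seen.

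No 2 arrays were copies: the highest correlation was 0.996, and at most 0.0403% of values were identical. Groups share replicate numbers in the labels. The deviations of same-numbered OVA and saline mice from their group means had correlations of 0.27, 0.21 and 0.19. Over all 84 same-numbered pairs of mice from 2 groups they ran from -0.32 to 0.35 with a median of 0.03, and 27 were above 0.1. Mice of different numbers were not compared, so this check cannot decide whether the numbers pair these 2 groups. Nothing in the labels says that they do. Alternatives were a filter on dim genes (10387 kept), all probe sets, array weights, quantile normalization again, trended robust variance, only the compared arrays, a replicate block, RNA quality covariates, heart and fat covariates, and each array left out. A replicate block within the 6 arrays was added after seeing the data.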

Additional observations from a re-analysis of the deposited data

Results flagged for a closer look

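The OVA difference with particles and the OVA difference without them differed for 14 genes by the interaction test in limma (adjusted p of 0.05), and each is given as the difference with particles minus that without, in log2. It was 2.37 for Chil4, 1.20 for Ccl11, 1.84 for Rnase2a and 2.11 for Arg1. For the chitinase family members Chil3 and Chia1 it was 2.11 and 1.36, and for the mucin Muc5ac 1.08. Scin, an actin-severing protein, had 1.18, Cd209e, a lectin of dendritic cells, had 0.72, Gbp6, an interferon-induced GTPase, had 1.21, and Rgs5 had 0.82. The negative values were -0.74 for Timm10b, -0.54 for Txn1 and -0.64 for Ndufa4, a subunit of the respiratory chain. For these 3 genes every group given particles without OVA had a higher mean than saline. Chil4, Ccl11, Rnase2a, Arg1 and Cd209e were dim in OVA and in saline, so the size of their differences is uncertain.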

How the results depend on the processing

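OVA against saline gave 0 calls in all alternatives except array weights, with 12 (8 higher, 4 lower), and leaving out saline replicate 1, with 1 (Timm10b), so the counts without 1 mouse ran from 0 to 1. At an unadjusted p of 0.05 the counts ran from 654 (without OVA replicate 3) to 1655 (array weights), beside 818. With the replicate number as a block, although pairing is not established, there were 0 calls on 24 arrays and 0 on the 6 compared arrays (847 and 1087 at an unadjusted p of 0.05). Array weights called Slc34a2 (0.56), Timm10b (0.57) and Cyp2e1 (-1.31) among the 20 genes of largest difference.

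The averaged OVA difference with particles, 474 genes, became 793 with all probe sets (more features tested), 755 with array weights and 69 with heart and fat covariates, and ran from 355 to 541 without 1 mouse. The interaction, 14 genes, became 9 with RNA quality covariates, 119 with array weights and 35 with the replicate block. Without 1 mouse it ran from 8 to 30: 8 without OVA replicate 1, 2 or 3, 24 without saline replicate 2 and 30 without CDEP_OVA replicate 3. The fit to the compared arrays alone does not apply to the interaction, which uses all 24. Where no reason is given, the cause was not tested. The ratio of the median SDs was 0.717 on log2 values, 0.720 as a coefficient of variation and 0.726 after quantile normalization. Among the genes followed, no value called in the main fit changed sign, and no alternative called a value of opposite sign to the main fit. Glycam1, called with array weights (-2.95) but not in the main fit, was 0.34 without saline replicate 3. Among values that missed the threshold, leaving out 1 of the 6 mice turned the sign of the OVA difference for 40 of the 208 genes followed through all alternatives. Without OVA replicate 2 it was 0.73 for Saa3 and 0.51 for Lcn2, and without saline replicate 1 it was -0.46 for Igha. Signal over background was not analysed here, and 2152 genes were dim in both groups.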
